A study of Mus musculus with 20 samples.

Results

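Muller glia span the whole thickness of the retina. Followed here were 10 genes linked to these cells or to their response to injury, in retinas of young and old mice. The mice drank plain water or water with NACET, the ethyl ester of N-acetylcysteine, which enters cells and supplies them with cysteine. The genes were chosen by name, with earlier results of these data known, and are 10 of 35006 genes counted in each of 20 libraries. Glul, Slc1a3, Kcnj10, Aqp4 and Vim mark the resting cell and are called identity genes here. Gfap, Lcn2, Serpina3n, Edn2 and Stat3 are known to rise when the retina is injured and are called injury-induced genes. Vim belongs to both, since it is expressed at rest and also rises after injury, and was counted with the identity genes. All mice were wild-type C57BL/6J, an inbred laboratory strain, and treated mice drank NACET for 5 days at a daily dose of 50 mg/kg. The 4 groups were young control (4 mice, all 119 days old), young NACET (6 mice), old control (4 mice, all 668 days) and old NACET (6 mice). By their titles, 4 of the young NACET mice were 129 days old and labelled male, and 2 were 119 days old and labelled female. The old NACET mice were labelled male and were 668, 581 or 574 days old, with 2 mice at each age. The other 2 mice labelled female were young control replicates 3 and 4, which brings the labelled females to 4 in all, whereas the methods of the study describe male mice only. For young NACET replicate 6 the title gives 119 days and the batch tag 129 days. The libraries were made from whole retina, so no value below is a measurement on isolated Muller glia.

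Muller glia take up glutamate released by neurons, convert it to glutamine, and carry potassium and water from the retina to the vessels and the vitreous. After injury, photoreceptor stress or long-lasting inflammation they enlarge and switch on a set of genes called reactive gliosis, whose classical sign is GFAP filaments in the Muller cell processes. Cytokines of the interleukin-6 family act on this response through the gp130 receptor and the transcription factor STAT3. In the resting rodent retina most Gfap comes from the astrocytes of the nerve fibre layer, so a Gfap value of whole retina holds both cell types.

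Each library held 17700500 to 31081959 counts in genes, and expression is given as counts-per-million values (CPM) on library sizes scaled by TMM, a method that balances library composition. One library stands apart. Old NACET replicate 1 held 11620 CPM in all of 14 lens genes (a list chosen after seeing its values), against 1.30 to 24.5 CPM in the other 19 libraries. In it the lens crystallin Cryaa was at 4742 CPM and the lens filament gene Bfsp1 at 213 CPM, against at most 12.2 and 0.569 CPM elsewhere. The summed markers of corneal and conjunctival epithelium (8 genes) ranged from 1.04 to 409 CPM, and Krt5 was above 20 CPM in 5 libraries, namely young NACET replicates 3, 4 and 5 and old control replicates 2 and 4. Old control replicate 4 is labelled male but held 2482 CPM of Xist and 0.0417 CPM of the Y-linked genes. Results that rest on these libraries are given with and without them. The label of the tissue held, since the 5 rod markers summed to 51527 CPM or more in every library and all 5 Muller identity genes were at 62.5 CPM or more.

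Compared per kilobase of exon, Glul, which encodes glutamine synthetase, stood far above the rest at a group mean of 446 to 516 CPM per kb. Vim, the type III intermediate filament of the cell, followed at 36.6 to 52.0 CPM per kb. Aqp4 (the water channel of the end feet), Slc1a3 (the glutamate transporter GLAST) and Kcnj10 (the potassium channel Kir4.1) had group means of 12.5 to 24.0 CPM per kb. The injury-induced genes lay lower. Stat3 had 7.32 to 8.89 CPM per kb, Edn2 4.40 to 9.94, Gfap 4.58 to 8.17, Serpina3n 2.44 to 5.04 and Lcn2 1.53 to 2.26. The spread between mice split the genes the same way. The coefficient of variation within a group (SD over the mean) was 2.02% to 13.6% for the identity genes, with the exception of Vim in old NACET mice at 59.3%. It was 16.7% to 43.3% for Gfap, Lcn2, Serpina3n and Edn2, while Stat3 at 2.89% to 10.2% resembled the identity genes. Gfap, Lcn2, Serpina3n and Edn2 also had the fewest counts. In young NACET replicate 2 Lcn2 had 56 counts and Kcnj10 had 1503. Counting error is relatively larger at low counts, and its part in the spread was not tested.

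By the mm9 build and the GENCODE annotation, Glul lies on chromosome 1 (155747074 to 155756853, plus strand), as does Kcnj10 (174271341 to 174304216, plus strand). Slc1a3 lies on chromosome 15 (8584124 to 8660764, minus strand) and Vim on chromosome 2 (13495554 to 13504453, plus strand). Gfap (102748650 to 102762226) and Stat3 (100746412 to 100800854) are both on the minus strand of chromosome 11. Lcn2 lies on chromosome 2 (32240153 to 32243317, minus strand), Serpina3n on chromosome 12 (105644939 to 105652539, plus strand) and Edn2 on chromosome 4 (119833811 to 119839965, plus strand). Reads were counted over exons without regard to strand. There were 2 genes that shared exon bases with a neighbour on the opposite strand, Stat3 with Stat5a (72 bases, 0.756% of its exon bases) and Glul with 5830403L16Rik (67 bases, 2.01%). Serpina3n belongs to a cluster of near-identical serpin genes and Glul has a pseudogene, Glns-ps1, so reads of these genes may be split with their copies.

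STAT3 binds DNA at sites of the form TTCNNNGAA, and the 250 bases before the start of 9 of the 10 genes were searched for these letters on both strands (RefSeq windows, GRCm38.p6; Aqp4 was not searched). The windows of the 4 injury-induced genes that rose with age under NACET are printed first, since the age results below turn on them, in lower case and 5′ to 3′ on the strand of the gene. They are chr4:120160956-120161205 on the plus strand for Edn2, chr12:104406458-104406707 on the plus strand for Serpina3n, chr11:102897201-102897450 on the minus strand for Gfap and chr11:100939541-100939790 on the minus strand for Stat3. The last window is that of Slc1a3, chr15:8710808-8711057 on the minus strand, with the matching letters in capitals.
Edn2: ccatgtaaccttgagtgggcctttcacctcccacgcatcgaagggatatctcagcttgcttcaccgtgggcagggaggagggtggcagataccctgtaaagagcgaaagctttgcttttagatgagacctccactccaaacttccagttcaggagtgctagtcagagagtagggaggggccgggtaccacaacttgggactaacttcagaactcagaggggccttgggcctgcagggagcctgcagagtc
Serpina3n: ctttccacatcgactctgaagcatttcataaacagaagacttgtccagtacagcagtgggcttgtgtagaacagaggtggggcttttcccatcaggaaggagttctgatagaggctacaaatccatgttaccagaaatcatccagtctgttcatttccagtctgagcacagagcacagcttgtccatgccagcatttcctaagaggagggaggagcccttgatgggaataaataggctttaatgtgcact
Gfap: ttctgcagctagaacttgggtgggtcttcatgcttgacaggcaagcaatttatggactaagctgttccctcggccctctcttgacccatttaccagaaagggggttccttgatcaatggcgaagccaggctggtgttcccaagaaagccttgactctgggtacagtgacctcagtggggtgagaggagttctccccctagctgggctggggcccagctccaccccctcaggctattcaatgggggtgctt
Stat3: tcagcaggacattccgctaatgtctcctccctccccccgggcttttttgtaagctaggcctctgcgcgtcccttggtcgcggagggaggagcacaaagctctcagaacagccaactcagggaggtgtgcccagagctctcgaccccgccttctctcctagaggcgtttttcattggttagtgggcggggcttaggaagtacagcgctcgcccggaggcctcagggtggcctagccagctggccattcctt
Slc1a3: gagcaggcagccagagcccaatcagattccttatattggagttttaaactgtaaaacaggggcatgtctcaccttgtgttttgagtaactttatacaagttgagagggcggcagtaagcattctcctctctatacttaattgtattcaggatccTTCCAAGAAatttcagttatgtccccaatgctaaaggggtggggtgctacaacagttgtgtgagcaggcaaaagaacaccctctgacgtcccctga
The letters were found in 1 of the 9 windows, that of the identity gene Slc1a3, where the match begins at base -96 from the start. Of all 32851 windows of the same length, 2306 (7.02%) hold them. No match says only that these letters are not in these 250 bases.

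Aging was measured first between the mice that drank no NACET. Young control replicates 3 and 4 were labelled female and all old controls male, so labelled sex runs partly with age here. None of the 10 genes passed the threshold (edgeR quasi-likelihood test, adjusted p under 0.05), where 1.42% of all 16484 genes tested did. With labelled sex as a term 0.479% of all genes passed, and among labelled males alone 0.41% did. Both fits took old control replicate 4 as male by its label, though its Xist and Y-linked counts go the other way. At an unadjusted p under 0.05 there were 4 of the 10 (16.3% of all genes). DESeq2 called 3, namely Aqp4, Edn2 and Stat3, and called 4.5% of all genes it tested. In these same 3 genes every old control lay above every young control, against 5.77% of all genes with the old range wholly above. A level in whole retina cannot tell more cells of a type from more RNA per cell.

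Edn2 encodes endothelin 2, a peptide that photoreceptors are known to release when they are damaged and that acts on Muller glia. It had the largest age difference of the 10 in control mice. The young controls had 9.72, 8.85, 7.24 and 5.55 CPM (7.84 ± 1.84, SD, n = 4), with 7.24 and 5.55 CPM in the mice labelled female. The old controls had 11.5, 19.8, 14.9 and 12.0 CPM (14.5 ± 3.81, n = 4). The 2 groups did not overlap, and the log2 change was 0.90 ± 0.20 (SE; edgeR, adjusted p = 0.0504). It was 0.70 without old control replicate 2, the library with the most corneal markers and the most Edn2 (adjusted p = 0.125), and 0.98 without old control replicate 4 (adjusted p = 0.0732). Without young control replicate 1 or old control replicate 1, Edn2 was called.

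Stat3 encodes the transcription factor of the gp130 pathway, and its levels varied little within each group. Young controls ranged from 66.9 to 72.6 CPM (66.9, 72.6, 70.7 and 70.3). Old controls ranged from 76.3 to 89.6 CPM (82.1, 89.6, 85.9 and 76.3). The groups did not overlap, and the log2 change was 0.25 ± 0.061 (edgeR, adjusted p = 0.0656). It was 0.21 without old control replicate 2 (adjusted p = 0.203) and 0.30 without old control replicate 4 (adjusted p = 0.0619).

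Among the identity genes, Aqp4 was the one whose ranges did not overlap. Its levels were 103, 110.3, 107 and 82.0 CPM in young controls (100.6 ± 12.7) and 134, 125, 129.7 and 122 CPM in old controls (128 ± 5.22). All 4 old mice lay above all 4 young mice, with a log2 change of 0.35 ± 0.084 (edgeR, adjusted p = 0.0698). Without old control replicate 2 or 4 it was 0.36 and 0.37 (adjusted p = 0.143 and 0.135). The other 4 identity genes overlapped between young and old controls and had log2 changes of -0.14 to -0.040.

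The remaining injury-induced genes overlapped. Serpina3n, a protease inhibitor that is among the strongest astrocyte genes of injury, went from 6.44 ± 1.79 to 9.35 ± 1.63 CPM (log2 0.55 ± 0.19, adjusted p = 0.187). Gfap, the filament of reactive glia, went from 25.2 ± 6.18 to 32.3 ± 6.52 CPM (log2 0.37 ± 0.17, adjusted p = 0.324). Lcn2, a secreted iron carrier of inflamed tissue, went from 4.09 ± 0.71 to 5.19 ± 1.24 CPM (log2 0.36 ± 0.19, adjusted p = 0.366). None of the 3 passed the test. Without old control replicate 2 the log2 changes were 0.43 for Serpina3n, 0.42 for Gfap and 0.20 for Lcn2, and without old control replicate 4 they were 0.57, 0.23 and 0.36. The highest Lcn2 value of all 20 libraries, 6.72 CPM, was that of old control replicate 2, the library with 409 CPM of corneal and conjunctival markers, whose part in it was not tested. In these control mice all 6 pigment epithelium markers (median log2 0.82) and all 5 corneal and conjunctival markers tested (median log2 3.74) also had age differences above 0, with none called by edgeR (2 and 4 at an unadjusted p under 0.05), and their part in the results was not tested.

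**Figure D1:**
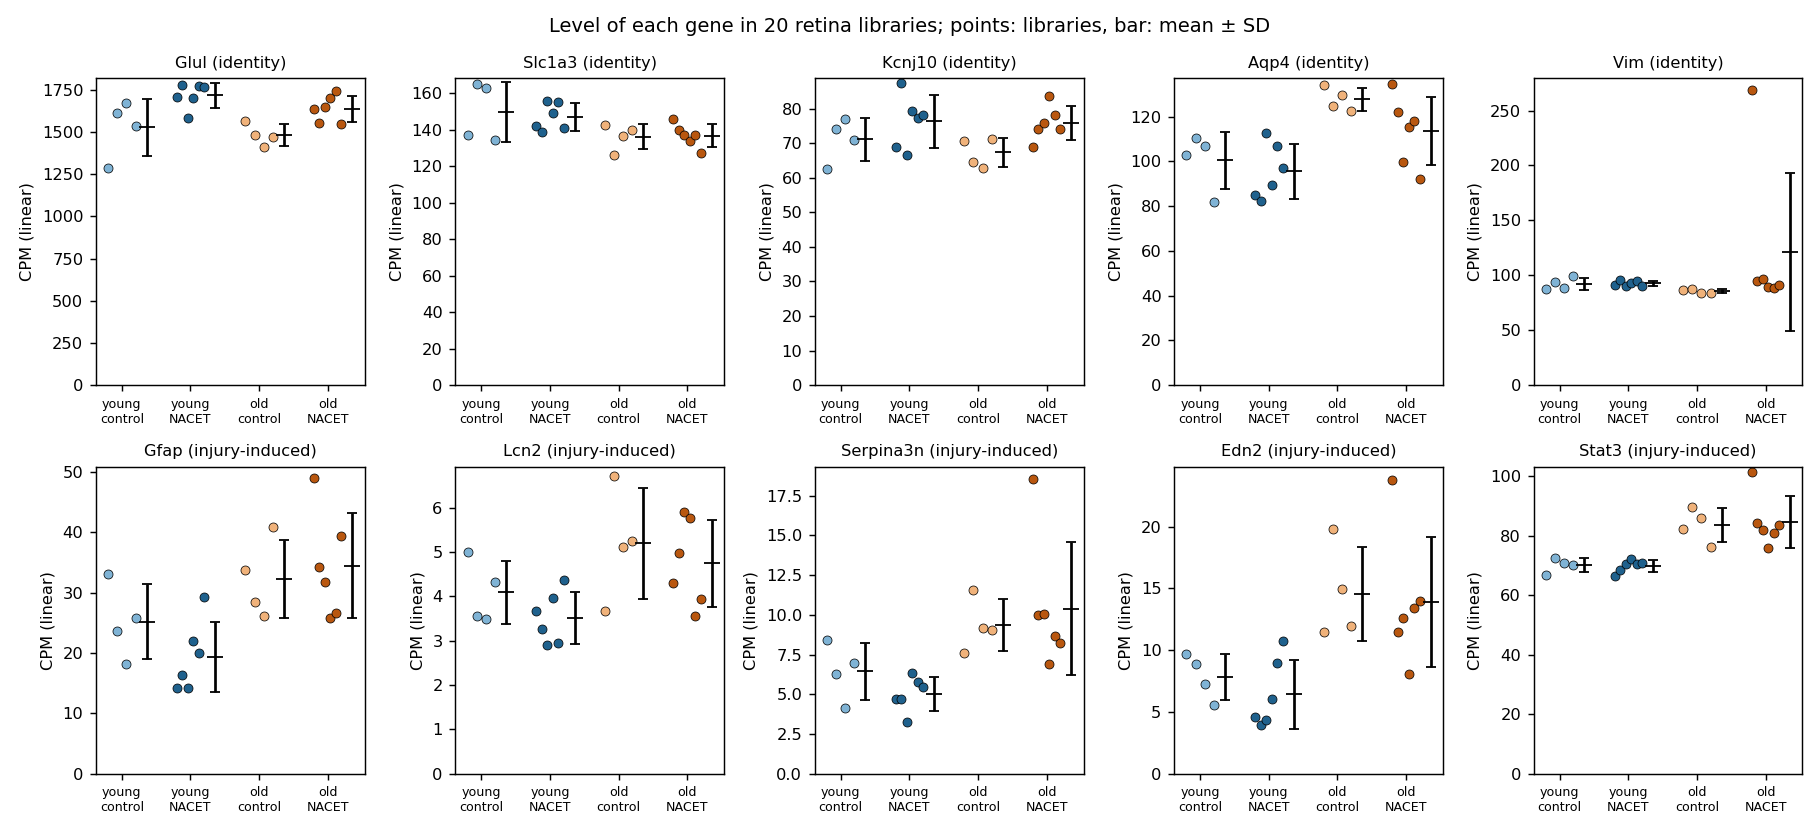
Each panel plots 1 gene in CPM (linear axis from 0) against the 4 groups, with 1 point per library and the mean ± SD beside it. Stat3 in all 10 old libraries (75.8 to 101 CPM) lies above all 10 young libraries (66.3 to 72.6 CPM), and old NACET replicate 1 stands alone in Vim at 268 CPM.

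The same age step was then measured among the mice that drank NACET. Here 4 of the 10 genes were higher in old mice, all of them injury-induced, where 4.88% of the 16276 genes tested were called and 2.24% were called higher. By edgeR no identity gene was called, with 2 of the 5 at an unadjusted p under 0.05 (21.1% of all genes). DESeq2 called the same 4 genes, and called 7.28% of all genes it tested. Edn2 had 3.96 to 10.7 CPM in young NACET mice (median 5.33) and 8.10 to 23.8 CPM in old NACET mice (median 13.0). The groups overlapped, and the log2 change was 1.11 ± 0.26 (edgeR, adjusted p = 0.0196). The call was lost without the libraries with Krt5 above 20 CPM (log2 1.13 ± 0.32, adjusted p = 0.0537) and with old mice of 668 days only (log2 1.46 ± 0.34, adjusted p = 0.0796).

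Serpina3n had 3.27 to 6.35 CPM in young NACET mice (median 5.08) and 6.91 to 18.5 CPM in old NACET mice (median 9.34). The ranges did not overlap, which was so in the same direction for 1.69% of genes, and the log2 change was 1.04 ± 0.21 (edgeR, adjusted p = 0.00827). Gfap had 14.1 to 29.2 CPM in young NACET mice (median 18.2) and 25.8 to 49.0 CPM in old NACET mice (median 33.0). Its ranges met between 25.8 and 29.2 CPM, and the log2 change was 0.84 ± 0.18 (edgeR, adjusted p = 0.0104). Stat3 had 66.3 to 72.0 CPM in young NACET mice (median 70.5) and 75.8 to 101 CPM in old NACET mice (median 82.7). Its ranges did not overlap either, and the log2 change was 0.28 ± 0.058 (edgeR, adjusted p = 0.00943). Lcn2 (log2 0.43 ± 0.15, adjusted p = 0.098) and Aqp4 (log2 0.25 ± 0.094, adjusted p = 0.132) did not pass.

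All 4 genes were still called without old NACET replicate 1, with log2 changes of 0.89 for Edn2, 0.79 for Serpina3n, 0.71 for Gfap and 0.22 for Stat3. The young NACET mice were not of 1 kind. The 4 males of 129 days had 3.96 to 6.08 CPM of Edn2, and the 2 females of 119 days had 8.98 and 10.7 CPM. For Gfap the values were 14.1 to 22.0 CPM and 19.9 and 29.2 CPM. Against the 2 mice of 119 days alone no member was called, and the log2 changes were 0.51 for Edn2, 0.50 for Gfap, 0.89 for Serpina3n and 0.27 for Stat3. Among labelled males alone, whose young mice were all 129 days old, the 4 genes were called, and Edn2 had a log2 change of 1.54. The sex and the day of age of the young NACET mice cannot be told apart.

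Markers of other cell types were read beside these genes. The 8 microglia markers summed to 42.8 to 60.1 CPM in young and 57.2 to 69.1 CPM in old libraries, with none at 0 in any library. With age under NACET 4 of these 8 were called higher, against 2.24% of all genes, namely Cx3cr1 (log2 0.85), C1qa (0.75), Tmem119 (0.65) and C1qb (0.55). In controls 1 of the 8 was called, against 1.42% of all genes. The 5 astrocyte markers overlapped widely, at 35.7 to 77.7 CPM in young and 40.1 to 54.6 CPM in old libraries, and none was called in any comparison. The 77.7 CPM was young control replicate 4, where Gja1 was at 34.9 CPM against 2.37 to 6.50 CPM in the other young libraries. The 7 neutrophil markers summed to at most 0.568 CPM, with 6 of 7 at 0 in some library. With age under NACET all 6 pigment epithelium markers (median log2 -0.84, 1 called) and all 5 corneal and conjunctival markers tested (median log2 -4.64, 4 called) lay below 0. The part of these cells in the results was not tested.

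Young and old mice were also compared over both treatments, with treatment as a term, in a fit of all 20 libraries chosen after seeing the data. It shares every library with the 2 comparisons above and is no separate evidence. In it 6 of the 10 genes were called, all higher, where 12.8% of all 16993 genes were called and 6.42% called higher. Edn2 had a log2 change of 1.02 ± 0.19 (edgeR, adjusted p = 0.00105), Serpina3n 0.84 ± 0.17 (0.00185), Gfap 0.65 ± 0.15 (0.0057), Lcn2 0.40 ± 0.12 (0.0272), Aqp4 0.29 ± 0.069 (0.00792) and Stat3 0.27 ± 0.042 (0.000162). Without old NACET replicate 1 the same 6 were called, and with labelled sex as a term Lcn2 was not (adjusted p = 0.0638). Stat3 was higher in each of the 10 old libraries than in any young library, as were 117 genes in all (0.689%). For Edn2 this was so in 9 of 10 old libraries, for Aqp4 in 8, for Serpina3n in 7, and for Gfap and Lcn2 in 5 each. Slc1a3, at 134 to 165 CPM in young and 126 to 146 CPM in old libraries, had a log2 change of -0.12 ± 0.041 and did not pass (adjusted p = 0.0628). Glul and Kcnj10 had log2 changes of -0.057 and -0.037.

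**Figure D2:**
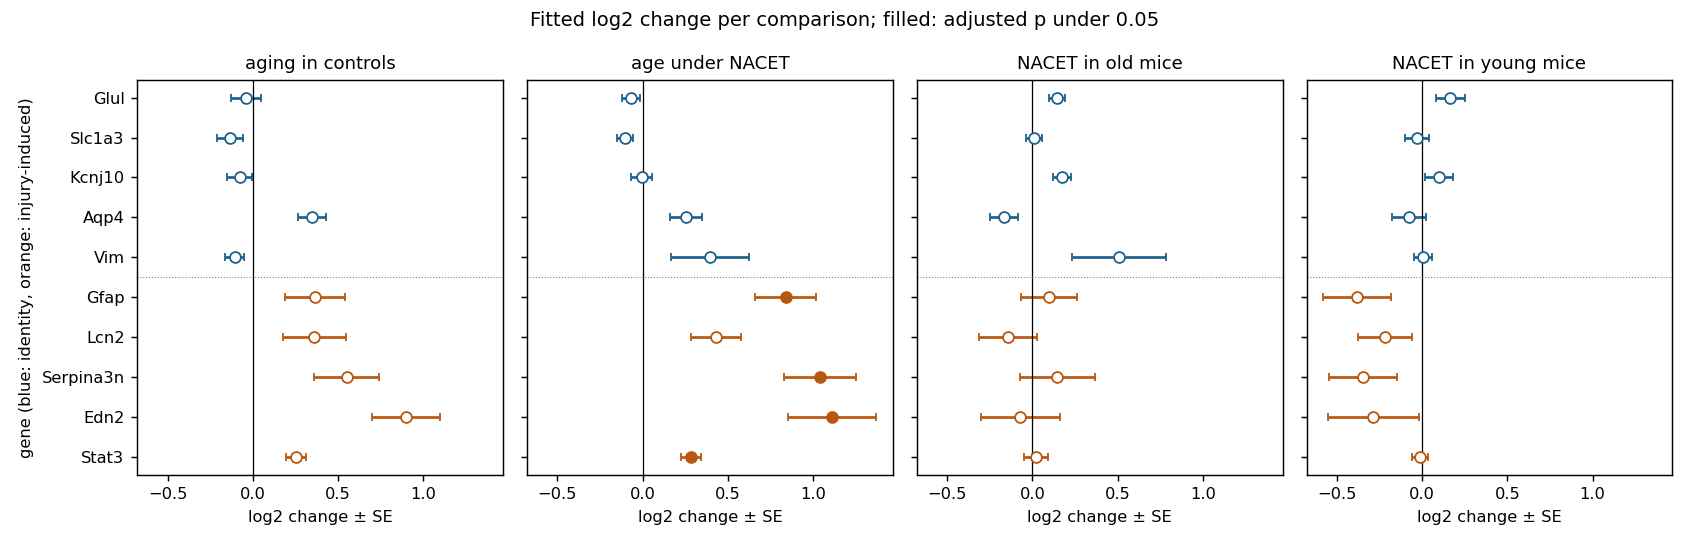
Fitted log2 changes ± SE (horizontal axis) of the 10 genes (rows) in 4 comparisons, with identity genes in blue above the dotted line and injury-induced genes in orange below it. Filled points passed an adjusted p under 0.05, which are Gfap, Serpina3n, Edn2 and Stat3 in age under NACET alone.

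NACET was compared with control in old mice next. None of the 10 genes was called, where 0.543% of the 16562 genes tested were. DESeq2 called none of the 10 either, against 2.25% of all genes it tested. The old controls were all 668 days old, whereas 4 of the 6 old NACET mice were 574 or 581 days old. At an unadjusted p under 0.05 (14.4% of all genes) were 2 genes, both of glutamate and potassium handling. Glul had 1569, 1485, 1414 and 1471 CPM in old controls and 1548 to 1742 CPM under NACET (median 1644). Kcnj10 had 70.6, 64.7, 63.0 and 71.1 CPM in old controls and 69.1 to 83.7 CPM under NACET (median 75.0). Both overlapped between the groups, with log2 changes of 0.14 ± 0.046 and 0.17 ± 0.054 (edgeR, adjusted p = 0.164 and 0.159). With the 2 NACET mice of 668 days alone they were 0.11 ± 0.067 and 0.093 ± 0.067.

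Vim was the gene whose NACET range lay wholly above that of old controls, as did 1.79% of all genes. Old controls had 83.8 to 87.4 CPM. Under NACET the values were 268, 94.9, 96.8, 89.7, 88.0 and 90.9 CPM, the first being replicate 1. The log2 change was 0.51 ± 0.28 (edgeR, adjusted p = 0.417), and 0.11 ± 0.044 without replicate 1 (adjusted p = 0.264). The lens also makes vimentin, and that library is the one with 11620 CPM of lens genes, whose part in its Vim value was not tested.

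The injury-induced genes of old control and old NACET mice had log2 changes from -0.15 to 0.15 and standard errors of 0.071 to 0.23. Edn2 was 14.5 ± 3.81 and 13.9 ± 5.28 CPM, Gfap 32.3 ± 6.52 and 34.5 ± 8.70 CPM, and Serpina3n 9.35 ± 1.63 and 10.4 ± 4.16 CPM. Without replicate 1 all 5 log2 changes were below 0, at -0.30 ± 0.16 for Edn2, -0.12 for Lcn2, -0.10 for Serpina3n, -0.038 for Stat3 and -0.032 for Gfap, and none was called.

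In young mice NACET gave no called gene at all among 16588 tested (0%), with 724 (4.36%) at an unadjusted p under 0.05, and none of the 10 was called by DESeq2 or reached an unadjusted p of 0.05. The 5 injury-induced genes all had log2 changes below 0, at -0.38 ± 0.20 for Gfap, -0.35 ± 0.20 for Serpina3n, -0.29 ± 0.27 for Edn2, -0.22 ± 0.16 for Lcn2 and -0.012 ± 0.049 for Stat3 (edgeR, adjusted p = 1 for each). Gfap was 33.1, 23.6, 18.2 and 25.8 CPM in the controls and 14.1 to 29.2 CPM under NACET, and the groups overlapped in all 5 genes. The split by day of age runs through this comparison too, since the controls were all 119 days old. With the batch tag as a term the log2 change of Edn2 was 0.19 ± 0.43, whereas it was -0.97 ± 0.19 among labelled males alone (adjusted p = 0.767). Vim, by contrast, was nearly the same in every mouse, at 87.3 to 99.7 CPM in the controls and 90.3 to 96.1 CPM under NACET, with a log2 change of 0.0026 ± 0.052.

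Whether the age difference was another under NACET was tested as an interaction over all 20 libraries. Ages and labelled sexes were not balanced between control and NACET mice, so NACET and these traits cannot be told apart in it. None of 16993 genes was called (0%), with 1052 (6.19%) at an unadjusted p under 0.05. Of the 10 genes none reached an unadjusted p of 0.05, and none was called by DESeq2, which called 0.403% of all genes it tested. The interaction was 0.50 ± 0.32 for Vim, 0.49 ± 0.33 for Serpina3n and 0.47 ± 0.29 for Gfap on the log2 scale (edgeR, adjusted p = 0.889, 0.902 and 0.874), and 0.22 ± 0.39 for Edn2. Without old NACET replicate 1 it was 0.099 ± 0.062 for Vim, 0.24 for Serpina3n, 0.34 for Gfap and -0.010 for Edn2. That 4 genes passed under NACET and none in controls therefore does not show a difference between treated and untreated mice, since none passed the interaction test.

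Identity and injury-induced genes were then set side by side as a description. With age the injury-induced genes had a median log2 change of 0.37 in controls and 0.84 under NACET, and all 5 were above 0 in both. The identity genes had medians of -0.077 and -0.0062, and all genes tested had medians of -0.0068 and -0.0013. Under NACET the medians were 0.14 for identity and 0.021 for injury-induced genes in old mice, and 0.0026 and -0.29 in young mice. With Vim moved to the injury-induced genes their age medians were 0.36 in controls and 0.64 under NACET.

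Each library was also given 2 averages, the mean log2 CPM of the 5 identity genes and that of the 5 injury-induced genes. The identity average lay between 7.31 and 7.53 in 19 libraries and at 7.82 in old NACET replicate 1. The injury average ranged from 3.08 to 3.96 in young and from 3.86 to 4.64 in old libraries. Young control replicate 1, at 3.96, was the young library that reached into the old range. The difference between the averages ran from -4.38 to -3.34 in young and from -3.64 to -3.01 in old libraries, so the 2 ages overlapped slightly.

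**Figure D3:**
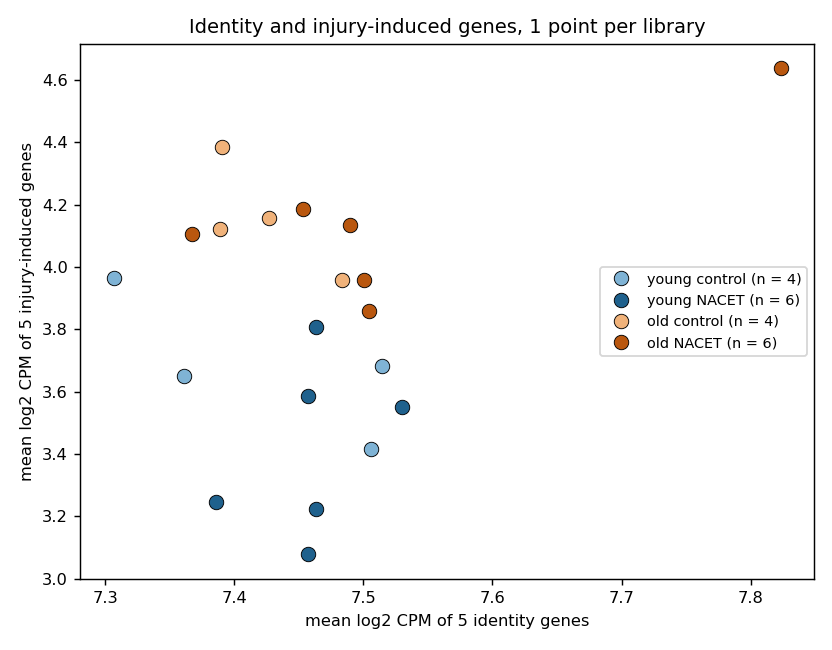
Mean log2 CPM of the 5 injury-induced genes (vertical) against that of the 5 identity genes (horizontal), 1 point per library in the colour of its group. Young libraries lie at 3.08 to 3.96 and old libraries at 3.86 to 4.64 on the vertical axis, and the point at the right is old NACET replicate 1 at 7.82 on the horizontal axis.

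Pearson's r was computed for all 45 pairs over 20 libraries after removing group means, with p from 100000 permutations within groups and adjustment over the 45 pairs. Glul and Kcnj10 varied together (r = 0.73, adjusted permutation p = 0.00833; Spearman's rho 0.72, adjusted permutation p = 0.0187), and so did Slc1a3 and Aqp4 (r = 0.72, adjusted permutation p = 0.00765; rho 0.75, adjusted permutation p = 0.00675). Among the injury-induced genes the pairs Serpina3n with Edn2 (r = 0.67), Gfap with Serpina3n (r = 0.67) and Edn2 with Stat3 (r = 0.63) passed by r (adjusted permutation p = 0.041, 0.041 and 0.042) and not by rho (adjusted permutation p = 0.0791, 0.0729 and 0.128). Leaving out the 2 libraries farthest from the median of the first gene gave r of 0.66, 0.65, 0.62, 0.61 and 0.50 for these 5 pairs in turn.

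Vim and Stat3 had the largest r of all, 0.78, which fell to 0.45 without the 2 farthest libraries and was not called (adjusted permutation p = 0.0876). It was 0.47 without old NACET replicate 1. None of the 25 pairs of 1 identity and 1 injury-induced gene was called, and their median r was -0.089. The median was 0.47 over the 10 injury-induced pairs and 0.18 over the 10 identity pairs.

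**Figure D4:**
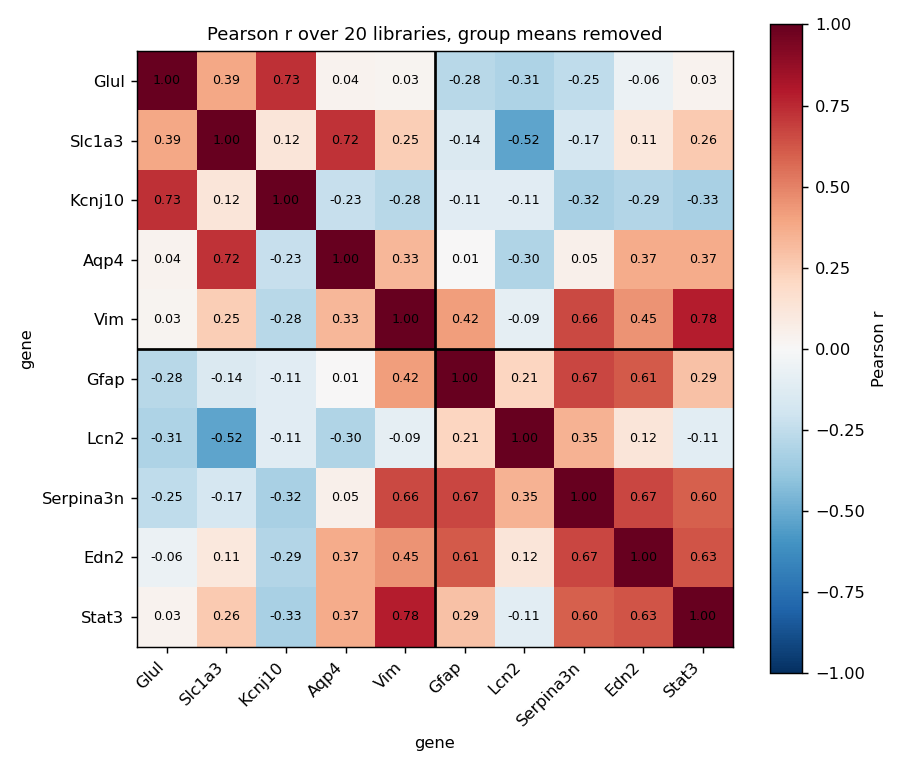
Pearson's r between the 10 genes over 20 libraries after removal of group means, from -1 (blue) to 1 (red), with black lines between identity and injury-induced genes. The highest r outside the 2 blocks on the diagonal is that of Vim and Stat3 (0.78), and within them that of Glul and Kcnj10 (0.73).

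The genes most like 3 of the members were sought among 14976 genes with a mean of 1 CPM or more, by r over the same 20 libraries with group means removed. For Glul they were its pseudogene Glns-ps1 (r = 0.86), Mpp3 (0.85) and Rhpn2 (0.79). For Gfap they were A930006K02Rik (0.85), Tubb2b (0.80) and Gm8292 (0.80). For Edn2 they were 1700048O20Rik (0.81), Pcdhb10 (0.76) and Mansc1 (0.76).

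Other genes of Muller glia were read from lists. Of 18 other Muller genes, such as the retinoid carrier Rlbp1 and the transcription factor Sox9, none was called with age in controls (1 at an unadjusted p under 0.05), with a median log2 change of -0.018. Under NACET 2 were called with age, against 4.88% of all genes, both carbonic anhydrases that buffer pH. Car2 was higher (log2 0.28 ± 0.055, adjusted p = 0.00779) and Car14 lower (log2 -0.28 ± 0.078, adjusted p = 0.04999). Of 13 partners in glutamate, potassium and water handling 12 could be tested, and Sntb1, a syntrophin of the complex that anchors channels, was called higher with age under NACET (log2 0.39 ± 0.092, adjusted p = 0.0211). None of the 6 intermediate filament partners, among them Nes and Synm, was called in any comparison.

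No gene listed here for the pathway above STAT3 was called. Osmr, the oncostatin M receptor, stood in another list and is given below. Of 22 genes of the gp130 and STAT3 pathway, 17 or 18 passed the low-count filter depending on the comparison, and none was called in any of the 5 comparisons by edgeR. At an unadjusted p under 0.05 were 4 of 17 with age in controls (16.3% of all genes) and 5 of 17 with age under NACET (21.1% of all genes). The ligands Il6, Cntf, Osm and Il11 fell under the filter. Socs3, a feedback inhibitor that STAT3 induces, was at 6.33 CPM in old NACET replicate 1 and 4.29 to 5.70 CPM in the other old NACET mice. Over all other 19 libraries it reached 6.75 CPM. For 15 genes of this pathway with a mean of 0.5 CPM or more, replicate 1 had a median of 1.02 times the mean of the other 5 old NACET mice. None of the 12 endothelin and growth factor genes was called either, of which 11 were tested.

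Astrocyte genes of reactivity were taken from lists that are in common use, where pan-reactive genes rise in all kinds of injury, A1 genes after inflammation and A2 genes after ischaemia. With age in controls 1.09% of all genes tested were called higher. Osmr, the oncostatin M receptor, was called higher among 7 pan-reactive genes tested (log2 0.67 ± 0.11, edgeR, adjusted p = 0.0113). Of 11 A1 genes, 2 genes of class I antigen presentation, H2-T23 (log2 0.83) and H2-D1 (log2 0.55), were called higher, and both belong to a family of near-identical copies. With age under NACET 2.24% of all genes tested were called higher and 2.64% lower. Of 10 A1 genes tested there, Serping1, a complement inhibitor (log2 0.70), and Fbln5, a matrix protein (log2 1.03), were called higher. Of 8 A2 genes tested there, Cd14, a receptor for bacterial lipid that microglia also express, was called higher (log2 0.84). Emp1 was called lower (log2 -4.40), as were Krt5 (-4.64), Krt12 (-4.51), Krt13 (-4.64) and Dsp (-4.69) of the corneal and conjunctival epithelium, so that Emp1 moved with epithelial markers, whose part in it was not tested.

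The library with lens genes was also the one with the most injury-induced RNA. In old NACET replicate 1 Gfap was at 49.0 CPM, Serpina3n at 18.5, Edn2 at 23.8 and Stat3 at 101 CPM, each the highest of all 20 libraries, while Lcn2 was at 4.30 CPM. This was so for 4 of the 5 injury-induced genes, for 2 of the 5 identity genes (Vim and Aqp4) and for 4 of the 18 other Muller genes, against 6.38% of the 16276 genes with a mean of 0.5 CPM or more. The reactive lists were mixed, with a median of 1.44 times the mean of the other 5 old NACET mice over 6 pan-reactive genes, 1.19 over 11 A1 genes and 1.07 over 9 A2 genes. The 3 with the largest ratios, chosen after their values were seen, were Cd44, Hspb1 and B3gnt5, while S1pr3 was at 1.02 times and Ptx3 at 0.692 times that mean. Cd44, a hyaluronan receptor of reactive glia, was at 40.7 CPM against 5.89 to 8.78 CPM in the other 5 old NACET mice, Hspb1, a small heat shock protein, at 10.7 CPM against 1.17 to 1.33, and B3gnt5 at 21.7 CPM against 1.61 to 2.38. The 18 other Muller genes in that library had a median of 1.05 times the mean of the other 5. Of the list genes called higher above with age under NACET, Sntb1, Serping1, Cx3cr1 and C1qa were highest of all 20 libraries here. Car2, Fbln5, Cd14, Tmem119 and C1qb were not. The part of lens tissue in the values of this library was not tested.

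**Figure D5:**
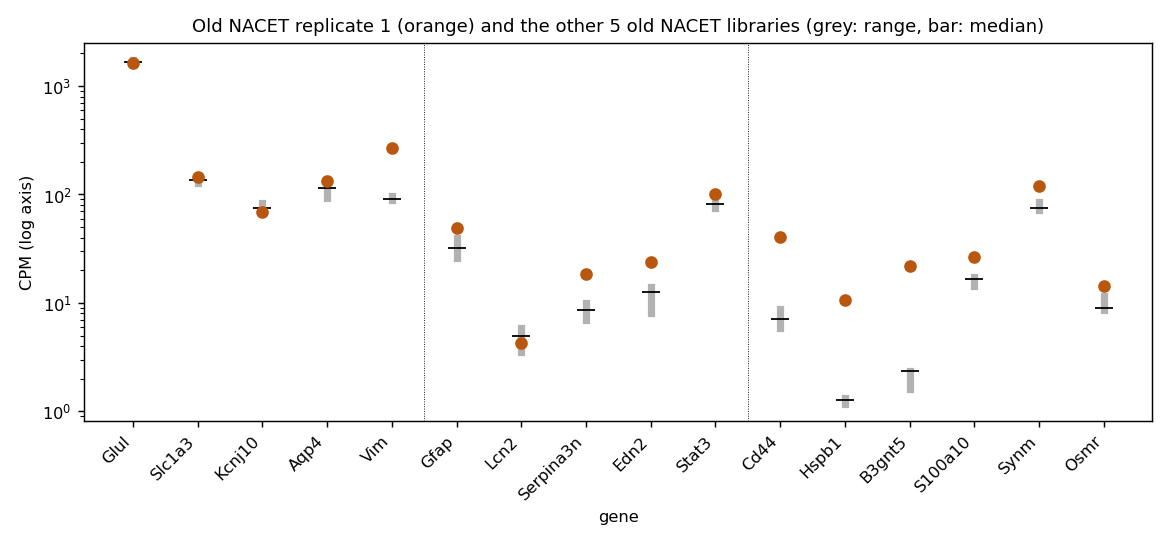
Level in CPM (log axis) of the 10 genes and 6 reactive or filament genes in old NACET replicate 1 (orange) and in the other 5 old NACET libraries (grey bar from lowest to highest, black mark at the median). Replicate 1 lies within the grey bars for Glul and Lcn2, below the bar for Kcnj10 and above the bars for the other 13 genes. The 6 added genes were picked from longer lists, and each was highest of all 20 libraries in replicate 1. Of genes in the same lists that are not drawn, Steap4 and S1pr3 lay within the range of the other 5. Ptx3, Prph and Ina lay below it.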

How the data were processed

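Retinal RNA of 20 mice was sequenced. By the sample labels and the published methods, RNA was polyA-selected, and the authors aligned single-end reads to mm9 with TopHat2 2.1.0 and counted them over exons without strand with HTSeq 0.11.2, and the deposited values are these raw counts. The annotation used for counting is not given in the sources used here. The members and gene lists were chosen with earlier results of these data known. Groups came from the labels. Each comparison was fitted with edgeR 4.0.16 in R 4.3.3 over all genes past its default filter (TMM normalization, quasi-likelihood test, Benjamini-Hochberg adjustment, called at 0.05, no limit on fold change), on its 2 groups, and the interaction on all 20 libraries. CPM was computed on TMM-scaled library sizes, and log2 CPM with a prior count of 1. Reads outside genes (14.1% to 20.5%), ambiguous reads (1.09% to 1.20%) and a row with no gene name (at most 0.0022%) were left out. Within groups, every pair of libraries differed by more than sampling noise. The labels do not say how litters or cages fell, so p-values measure the spread between these mice. The fit was tested on simulated data. Named genes were the 10 members, the called genes of each list (at most 5 per list and comparison) and the 3 most like Gfap, Edn2 and Glul. DESeq2 1.42.0, RLE normalization, no filter, a replicate block, sex, batch, age cohorts and left-out libraries were alternatives. Fits over both treatments, of single age cohorts, and the lens list were chosen after seeing the data. Precision per library is set by depth: 3 counts, the limit that a count of 0 allows, were 0.096 to 0.175 CPM and cover counting error only. Results of some called list genes are not reported here.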

Additional observations from a re-analysis of the deposited data

Results flagged for a closer look

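Within the group of 6 old NACET libraries, 4 of the 10 genes had 1 value far from the others by Dixon's test, each time the highest and each time in replicate 1. They were Vim at 268 CPM, Serpina3n at 18.5 CPM, Edn2 at 23.8 CPM and Stat3 at 101 CPM. Chance alone gives such a value in about 1 of 20 groups. In no other group did any of the 10 genes have such a value. The same library held 11620 CPM of lens genes, and 2.07% of all 16993 genes had their far highest value in it, against 0.3% to 0.818% in the other 5 old NACET libraries. Over all groups the share was highest in young control replicate 1, at 2.21%, in a group of 4.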

How the results depend on the processing

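With age under NACET the number of members called stayed at 3 to 6 in the alternatives with 1 exception, the 2 young mice of 119 days alone, where 0 were called. Edn2 lost its call without the 5 libraries with Krt5 above 20 CPM (adjusted p = 0.0537) and with old mice of 668 days only (adjusted p = 0.0796). With age in controls 3 members were called by DESeq2, 2 with no filter on low counts, 1 in the fit of all 4 groups, 6 over both treatments, 1 with the replicate block, and 0 to 1 without single libraries. The replicate numbers did not pair the mice, with correlations of same-numbered libraries from -0.16 to 0.12, and the block changed no other call of a member. The median log2 change of the injury-induced genes was 0.28 for NACET in old mice of 668 days, -0.62 for NACET in young labelled males and 0.76 for the interaction in labelled males. With age it was 0.65 over both treatments, 0.56 over both treatments without old NACET replicate 1, 0.50 against young mice of 119 days and 1.11 in old mice of 668 days. Of the 50 log2 changes of the members 22 took the other sign in some alternative, and none of these 22 had been called. The cause was not tested.

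Glul with age in controls became 0.032 with labelled sex as a term and 0.032 in labelled males, and Vim 0.19 over both treatments. For NACET in old mice Lcn2 became 0.022 with the replicate block. Without the libraries with Krt5 above 20 CPM, Slc1a3 became -0.023, Lcn2 0.11 and Edn2 0.080, and in mice of 668 days Aqp4 became 0.012 and Edn2 0.28. For NACET in young mice with the batch tag as a term, Slc1a3 became 0.047, Aqp4 0.083 and Edn2 0.19. With age under NACET Kcnj10 became 0.0078 with labelled sex as a term and Vim -0.052 over both treatments in 19 libraries. The interaction of Aqp4 became 0.038 in labelled males. Without single libraries the range was -0.12 to 0.0056 for Glul with age in controls. For NACET in old mice it was -0.025 to 0.029 for Slc1a3, -0.032 to 0.23 for Gfap, -0.28 to 0.016 for Lcn2, -0.10 to 0.27 for Serpina3n, -0.30 to 0.13 for Edn2 and -0.038 to 0.060 for Stat3. For NACET in young mice it was -0.077 to 0.019 for Slc1a3, -0.019 to 0.045 for Vim and -0.030 to 0.0099 for Stat3. With age under NACET it was -0.043 to 0.033 for Kcnj10 and -0.0076 to 0.47 for Vim. For the interaction it was 0.099 to 0.57 for Vim, 0.24 to 0.66 for Serpina3n, -0.071 to 0.049 for Glul, -0.019 to 0.084 for Slc1a3, -0.058 to 0.23 for Lcn2, -0.010 to 0.41 for Edn2 and -0.032 to 0.065 for Stat3. Apart from the fits over both treatments, the number of all genes called moved by more than 1.5 times: 53 to 721 with age in controls (main 234), 0 to 375 for NACET in old mice (main 90), 151 to 1326 with age under NACET (main 795), 0 to 8 for NACET in young mice (main 0) and 0 to 86 for the interaction (main 0). The fits of age over both treatments called 1679 to 2298 genes.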

Other observations

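In old NACET replicate 1, outside the 10 genes, 8 of the 10 genes with the highest ratio to the mean of the other 5 old NACET libraries (of 10402 genes at 10 CPM or more) were Crybb2 (3733 CPM), Cryaa (4742 CPM), Bfsp1 (213 CPM), Wnt7b (33.2 CPM), Bfsp2 (175 CPM), Crybb3 (139 CPM), Nid1 (49.2 CPM) and Cryab (924 CPM). In the other 5 libraries Crybb2 was at most 0.332 CPM and Cryab 20.5 to 24.1 CPM. Hmox1, which encodes haem oxygenase 1 and was chosen after its values were seen, was at 40.3 CPM there and 3.19 to 4.29 CPM in the other 5.

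Ttr, a marker of the pigment epithelium, was lower with age under NACET (log2 -0.92 ± 0.25, edgeR, adjusted p = 0.0417), and the 6 pigment epithelium markers summed to 30.3 to 199 CPM over all libraries.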
